A study of Mus musculus with 5 samples.

Results

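Ins1, Ins2 and Iapp, the genes of the islet hormones insulin and amylin, were each measured by 1 probe, so these 3 genes, of 31829 gene names on the array, account for 3 of its 39429 non-control probes. They were taken by gene name from the scanner tables of 5 one-colour Agilent mouse expression arrays, and each probe had 1 spot per array. Agreement between probes of a gene could therefore not be assessed. The cells were MIN6, a line from an insulinoma of a mouse in which an insulin promoter drove a viral T antigen, widely used as a model of the pancreatic beta cell. The EXO-HP group (n = 3 arrays) was MIN6 given exosomes, small vesicles that cells release, from ex vivo muscle of mice fed high fat diet. The EXO-STD group (n = 2 arrays) was MIN6 given exosomes from ex vivo muscle of mice fed standard diet. All 5 samples had thus received muscle vesicles, and no vesicle-free sample was analysed here. The question put to these probes was whether the message of the hormones differed with the diet of the mice that gave the muscle.

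Beta cells make insulin as a precursor that is folded in the endoplasmic reticulum, cut by the prohormone convertases Pcsk1 and Pcsk2 and trimmed by carboxypeptidase E (Cpe) in secretory granules. Mice carry a pair of non-allelic insulin genes. Ins2 is the ancestral gene and the counterpart of human INS, and Ins1 is a copy that arose in rodents by retroposition. Iapp encodes amylin, a peptide packed into the same granules and released with insulin, which slows gastric emptying and restrains glucagon release. Transcription of the insulin genes is driven by Pdx1, Mafa and Neurod1, and Iapp is also a target of Pdx1.

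The sequences of the probes are shown because every value given here rests on 1 of them. The first is the whole probe of Ins1, 60 bases at chr19:52339385-52339444 on the plus strand, and its capitals mark the 7 bases that were the longest stretch it shared with the probe of Ins2. The others are bases 31 to 60 of the probes of Ins2, at chr7:149864566-149864625 on the minus strand, and of Iapp, at chr6:142252275-142252334 on the plus strand, with AATAAA, the polyadenylation hexamer, in capitals.
Ins1: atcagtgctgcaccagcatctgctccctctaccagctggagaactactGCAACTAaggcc
Ins2: cctctgcaatgAATAAAacctttgaatgag
Iapp: aagtttaacAATAAAgaagaccatgggatg

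Positions are in mm9, as the scanner tables list them, and the exons or untranslated regions at these positions were not annotated here. The hexamer began at base 42 of the Ins2 probe and at base 40 of the Iapp probe, and AATAAA was found in 12.6% of all 39429 probes on the probe's strand and in 4.03% on the opposite strand. The probes differed in base composition, with a GC content of 55.0% for Ins1, 48.3% for Ins2 and 35.0% for Iapp, around a median of 41.7% over all probes. Among the other probes of the array, none shared 15 bases in a row with the Ins1 probe, 2 did with the Ins2 probe and 1 with the Iapp probe, and no shared stretch was longer than 15 bases. These matches are between probes only. No transcript sequences were compared, so they do not show whether the Ins1 probe also binds Ins2 transcripts, or the reverse. How much of the Ins1 signal came from Ins2 transcripts, or the reverse, was not tested. Signals of different probes depend on the probe as well as on the transcript, so their order is not an order of transcript abundance.

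All 3 probes were among the brightest on each array. The processed signal, the Cy3 fluorescence after subtraction of background and correction for a spatial trend, is given here in the scanner's units. Ins2 read 359266, 465213 and 443258 units in EXO-HP, against 323412 and 385019 in EXO-STD. For Ins1 the signals were 319646, 438910.3 and 405187 units in EXO-HP and 339613 and 393131 in EXO-STD. Both insulin probes were highest on EXO-HP replicate 2, and for each of them the groups overlapped. Iapp, the amylin probe, read 270260.4, 334552 and 339484 units in EXO-HP, against 266959 and 288452 in EXO-STD, and its groups overlapped as well, with EXO-HP replicate 1 between the EXO-STD arrays. These are signals before any scaling between arrays. The scanner software's own error estimate for each of these spots was 10% of the signal.

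**Figure D1:**
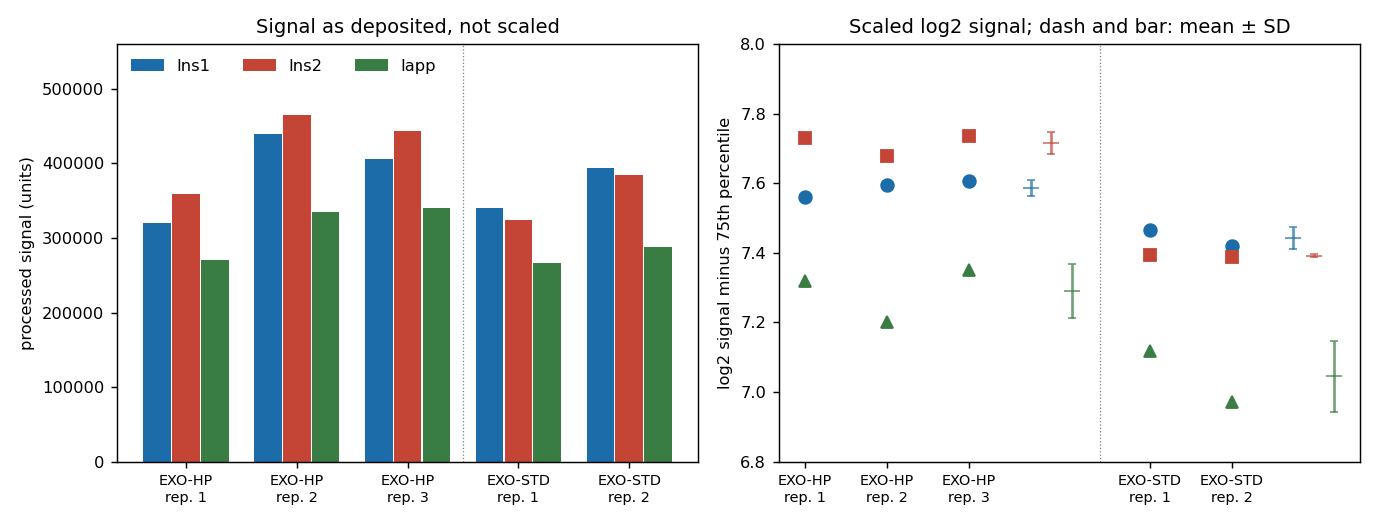
Left, processed signal (units, linear axis from 0) of Ins1, Ins2 and Iapp on each array, without scaling between arrays. Right, log2 of the same signals minus the 75th percentile of the array, with the mean and SD of each group beside its points (n = 3 EXO-HP, n = 2 EXO-STD). The unscaled groups overlap for all 3 genes, whereas the scaled EXO-HP values lie above the scaled EXO-STD values, but with median scaling the groups overlap for all 3 genes.

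Ranked from the brightest probe down by the processed signal, Ins2 stood at places 13, 8 and 10 in EXO-HP and at 23 and 17 in EXO-STD. Ins1 took places 18, 12 and 14 in EXO-HP, against 20 and 16 in EXO-STD. Both insulin probes thus lay within the first 23 places on every array. Iapp took places 28, 33 and 23 in EXO-HP and 38 and 31 in EXO-STD. By mean log2 signal over the 5 arrays the order of the members was Ins2 (place 12), Ins1 (place 16) and Iapp (place 29), and each lay at 1221 to 1953 times the median probe of its array. Ins2 and Ins1 were neighbours in this order that changed sides between arrays. Iapp lay below both on all 5 arrays.

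**Figure D2:**
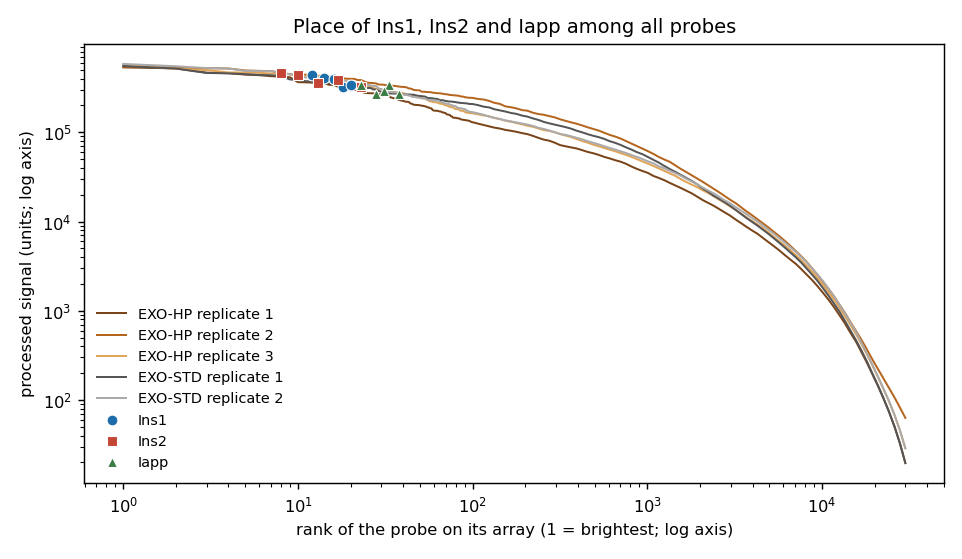
Processed signal (log axis) against the rank of the probe (log axis, 1 is the brightest) for all probes of each of the 5 arrays as lines, with Ins1, Ins2 and Iapp as points. The members lie between places 8 and 38 at the flat upper end of each curve.

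The probes next to them in level included those of other secretory granule genes. By mean log2 signal, Chga, the granule protein chromogranin A, stood at place 2, Cpe at place 6, Chgb, which encodes chromogranin B, at place 9 and Cck, the gene of cholecystokinin, at place 15. Rn18s, a ribosomal RNA, was at place 7, and the small RNA Rn4.5s was at place 10. Also ahead of Ins2 or close below it were the probes named for Gm4229, Gm4638, Cfap74, F10, Exosc2, Gm10845, Slc10a1 and Elk1. The probe named for F10 shared 20 or more bases in a row with 10 other probes of the array, including 41 bases with the probe named for Elk1, which shared such a stretch with 8 probes, so these signals cannot be assigned to a single gene. The probes named for Gm4229 and Exosc2 each shared such a stretch with 1 other probe. None of the probes of Ins1, Ins2 and Iapp shared 20 bases with another.

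None of the 15 member spots was saturated, held a saturated pixel or was flagged as an outlier, and all were well above background. The mean pixel value of the Ins1 spot reached 49.7%, 61.3% and 55.6% of the saturation value in EXO-HP and 51.4% and 59.3% in EXO-STD. Ins2 reached 42.4%, 53.7% and 53.0% in EXO-HP, against 38.7% and 47.5% in EXO-STD. For Iapp the values were 32.5%, 38.1% and 38.8% in EXO-HP and 31.2% and 34.5% in EXO-STD. The brightest spike-in control had a median signal of 213699 to 374005 units over the EXO-HP arrays and of 170838 to 272955 units over the EXO-STD arrays, and Ins1 and Ins2 exceeded it on all 5 arrays. Iapp exceeded it on 3 arrays and lay below it on EXO-HP replicate 2 and EXO-STD replicate 1.

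The correction for the spatial trend changed the order of the insulin genes on the EXO-HP arrays, whereas Ins1 was ahead on both EXO-STD arrays with or without it. Feature Extraction divides each spot by a fitted surface, which at the Ins1 spot (row 227) was 1.21, 1.09 and 1.07 in EXO-HP and 1.18 and 1.18 in EXO-STD. At the Ins2 spot (row 490) it was 0.919, 0.899 and 0.931 in EXO-HP, against 0.932 and 0.961 in EXO-STD. The Iapp spot (row 487) had 0.936, 0.887 and 0.890 in EXO-HP and 0.911 and 0.930 in EXO-STD. The correction therefore lowered Ins1 and raised Ins2 and Iapp on all 5 arrays. Before it, Ins1 stood at places 10, 5 and 8 in EXO-HP and at 5 and 4 in EXO-STD, ahead of Ins2 at places 19, 13 and 11 in EXO-HP and at 27 and 20 in EXO-STD. Iapp took places 33, 50 and 31 in EXO-HP and 62 and 43 in EXO-STD before the correction. The authors' deposited log2 table, whose ranks within an array were those of the mean signal minus local background, gave the same places for the 3 genes on all 5 arrays.

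Together the 3 probes carried 0.604%, 0.484% and 0.602% of the summed processed signal of all probes in EXO-HP, against 0.429% and 0.513% in EXO-STD. The groups overlapped in this share, with EXO-HP replicate 2 below EXO-STD replicate 2. Their means were 0.563% ± 0.069 (SD, n = 3) in EXO-HP and 0.471% ± 0.059 (SD, n = 2) in EXO-STD. Ins2 accounted for 0.212% ± 0.026 in EXO-HP and 0.167% ± 0.025 in EXO-STD. Ins1 accounted for 0.193% ± 0.019 in EXO-HP and 0.173% ± 0.023 in EXO-STD, and Iapp for 0.158% ± 0.024 in EXO-HP and 0.131% ± 0.011 in EXO-STD. These are shares of fluorescence, not of transcripts.

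The arrays themselves differed. Slide 1 (scan 1) held EXO-HP replicate 1 and both EXO-STD arrays, and slide 2 (scan 2) held EXO-HP replicates 2 and 3. In EXO-HP 74.0%, 91.6% and 81.6% of spots were well above background, against 73.4% and 71.8% in EXO-STD, with EXO-HP replicate 2 standing apart from the others. No probe passed the limma test at an adjusted p under 0.05 (0 of 31977, 0%), and 1787 (5.59%) had an unadjusted p under 0.05, of which 1711 (5.35% of those tested) were higher in EXO-HP. The titles call the samples biological replicates but do not say whether the cultures or the vesicle preparations were separate, so part of the spread behind the p-values may be technical. Per array, summed signal of 16 beta cell markers, all well above background on all 5 arrays, was 1438635 to 1831442 units in EXO-HP and 1439448 to 1649350 in EXO-STD. These markers include Ins1, Ins2 and Iapp, so the sum holds the signals of the hormone genes and is no separate measure of them.

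None of the 3 genes passed the test between EXO-HP and EXO-STD. After scaling to the 75th percentile of each array, Ins2 was 1.25-fold as high in EXO-HP as in EXO-STD, Iapp 1.19-fold and Ins1 1.11-fold, with the Ins1 direction turned under 3 other settings, and the 95% interval of each log2 difference included 0. A change of up to 1.71-fold for Ins2, 1.64-fold for Iapp and 1.51-fold for Ins1 lay within these intervals. The lower ends of the intervals were 0.914-fold for Ins2, 0.854-fold for Iapp and 0.808-fold for Ins1. With bulk RNA, a difference in the number of hormone-expressing cells and in the RNA per cell could not be told apart.

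Ins2 had normalised log2 signals of 7.73, 7.68 and 7.73 in EXO-HP, against 7.39 and 7.39 in EXO-STD. Every EXO-HP array lay above both EXO-STD arrays, as was the case for 15.1% of all tested probes (4820 of 31977). The means were 7.71 ± 0.03 (SD, n = 3) in EXO-HP and 7.39 ± 0.004 (SD, n = 2) in EXO-STD, a log2 difference of 0.32 (limma, SE 0.18, 95% interval -0.13 to 0.77, adjusted p = 0.971). A p at least as small was found for 13.3% of all tested probes, and a log2 difference at least as high for 24.0%. Without EXO-HP replicate 2 the difference was 0.34, and within slide 1, with EXO-HP replicate 1 set against both EXO-STD arrays, it was also 0.34.

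Ins1 stood at 7.56, 7.59 and 7.61 in EXO-HP and at 7.47 and 7.42 in EXO-STD on the same scale. The groups were apart here too, by less than for Ins2. Its means were 7.59 ± 0.02 (SD, n = 3) in EXO-HP and 7.44 ± 0.03 (SD, n = 2) in EXO-STD, a log2 difference of 0.14 (limma, SE 0.18, 95% interval -0.31 to 0.60, adjusted p = 1.00). The direction depended on the scaling. With each array scaled to its median, with normexp and quantile normalisation, and in the authors' deposited table, the Ins1 difference was -0.03 in each case. Without EXO-HP replicate 2 it was 0.14 and within slide 1 it was 0.12.

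Iapp had 7.32, 7.20 and 7.35 in EXO-HP, against 7.12 and 6.97 in EXO-STD, as normalised log2 signals. Its groups were apart as well, with EXO-HP replicate 2 and EXO-STD replicate 1 the nearest pair. The means were 7.29 ± 0.08 (SD, n = 3) in EXO-HP and 7.05 ± 0.10 (SD, n = 2) in EXO-STD, a log2 difference of 0.25 (limma, SE 0.19, 95% interval -0.23 to 0.72, adjusted p = 1.00). Without EXO-HP replicate 2 the difference was 0.29 and within slide 1 it was 0.27.

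The groups did not overlap for any of the 3 genes on this scale, with EXO-HP higher, as for 15.1% of all tested probes. A two-sided exact permutation test over these arrays gave p = 0.2 for each gene, the smallest it can give for 3 arrays against 2. With each array scaled to its median, the groups overlapped for all 3 genes and the differences were 0.15 for Ins2, 0.07 for Iapp and -0.03 for Ins1. That scaling moved the median of all tested probes to -0.10, against 0.07 with the 75th percentile. Since these scalings differ by 1 constant per array, they shift all probes alike, and measured from the median probe the differences are 0.25 for Ins2, 0.17 for Iapp and 0.07 for Ins1 by construction under both. Over the 75th percentile scaling, both quantile normalisations, the deposited table and the signal before the spatial correction, the difference measured from the median probe was 0.20 to 0.26 for Ins2, 0.14 to 0.22 for Iapp and -0.02 to 0.10 for Ins1. With quantile normalisation of the processed signals Ins2 kept its groups apart, at a difference of 0.24, and the groups overlapped for Ins1 (0.08) and Iapp (0.13).

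On the 75th-percentile scale the insulin probes varied little between replicates. There the pooled replicate SD of the normalised log2 signal was 0.03 for Ins1, 0.03 for Ins2 and 0.09 for Iapp, against a median of 0.30 over all tested probes and 0.19 over the 100 brightest. A smaller SD was found for 0.119% of tested probes in the case of Ins1, 0.116% for Ins2 and 4.31% for Iapp. The spread depended on the scaling: with median scaling the SD of Ins2 was 0.11 in EXO-HP and 0.06 in EXO-STD, and that of Ins1 was 0.07 in EXO-HP and 0.09 in EXO-STD. For comparison, probes that the array carries at least 5 times had a median SD between spots of 1 array of 0.11 to 0.14. The moderated SE of limma, 0.18 for Ins1 and Ins2, borrows from the spread of all probes and is accordingly larger than these 5 values alone would give.

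Of the 15 brightest probes, 3 had EXO-HP arrays all above the EXO-STD arrays, namely those of Chgb and Ins2 and the probe named for Elk1, and of the 100 brightest, 16 did, against 15.1% of all tested probes. Of the 500 brightest, 24 did (4.8%). The median log2 difference was 0.09 over the 15 brightest, 0.04 over the 100 brightest and -0.02 over the 500 brightest, against 0.07 over all tested probes. Ins2 had the highest log2 difference among the 100 brightest probes, whose range was -0.26 to 0.32. This comparison was made after the values were seen.

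**Figure D3:**
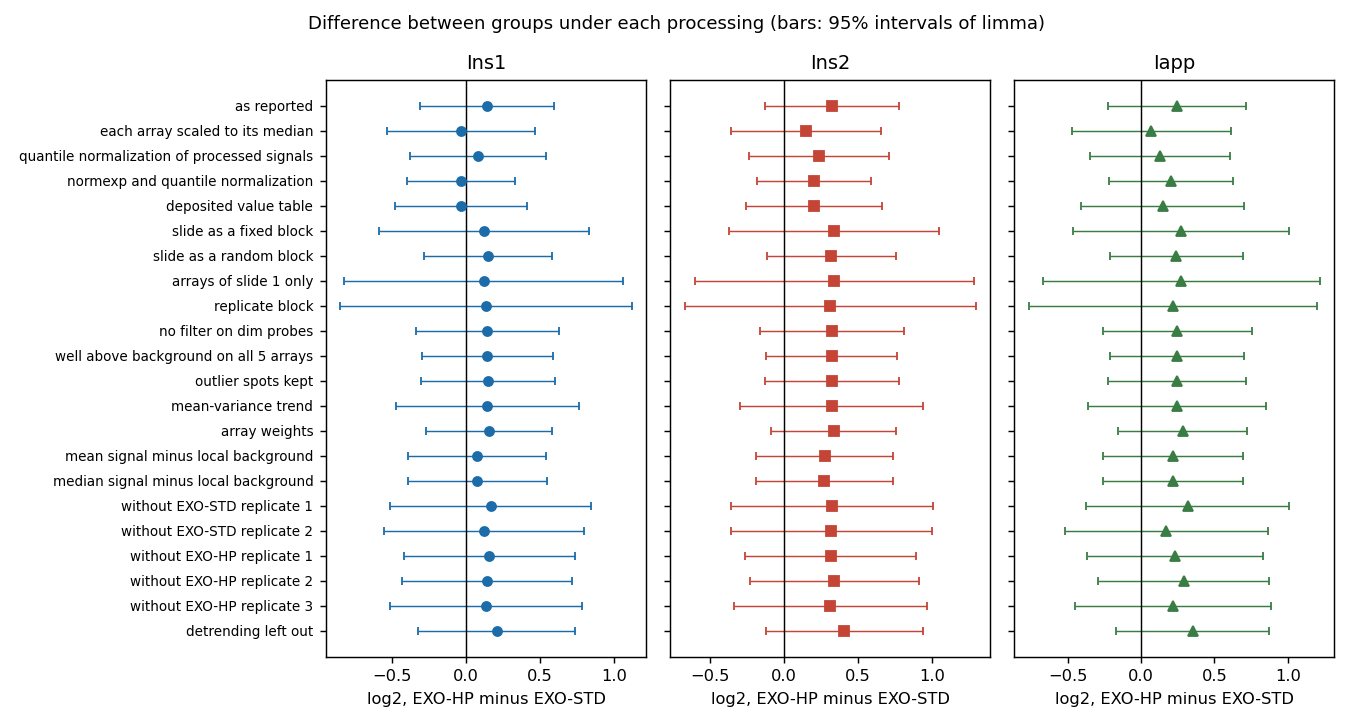
Log2 difference (EXO-HP minus EXO-STD) of Ins1, Ins2 and Iapp with its 95% interval from limma, as reported in the top row and under each alternative processing below it. Every interval includes 0, the Ins2 and Iapp points lie above 0 in all rows, and the Ins1 points lie just below 0 in 3 rows, at -0.03.

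The ratio of the insulin genes within an array does not depend on a scale factor common to the array. The log2 processed signal of Ins2 minus that of Ins1 was 0.17, 0.08 and 0.13 in EXO-HP, against -0.07 and -0.03 in EXO-STD. Ins2 was thus the brighter probe on all 3 EXO-HP arrays and the dimmer one on both EXO-STD arrays. The mean was 0.13 ± 0.04 (SD, n = 3) in EXO-HP and -0.05 ± 0.03 (SD, n = 2) in EXO-STD, a difference of 0.18 or 1.13-fold (two-sided exact permutation p = 0.2, the smallest possible here). Without EXO-HP replicate 2 the difference was 0.20, and within slide 1 it was 0.22.

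Before the spatial correction the same quantity was -0.23, -0.19 and -0.07 in EXO-HP and -0.41 and -0.32 in EXO-STD. Ins1 was then the brighter probe on all 5 arrays, and the groups still did not overlap. The means were -0.16 ± 0.08 (SD, n = 3) in EXO-HP and -0.36 ± 0.06 (SD, n = 2) in EXO-STD, a difference of 0.20 (two-sided exact permutation p = 0.2). In the authors' deposited log2 table the difference was 0.24. Which of the genes gave the brighter probe thus depended on the correction in EXO-HP and not in EXO-STD. The difference between the groups was 0.16 to 0.24 in all 12 alternatives computed, which reuse the same spots and are not independent. Each ratio rests on 1 spot per probe and array. Probes of at least 50000 units that the array carries at least 5 times numbered 4 to 7 per array. Their median SD between spots was 0.086 to 0.099 in the processed signal and 0.10 to 0.17 before the spatial correction. The largest SD on an array was 0.16 to 0.23 in the processed signal. These are SDs of single spots, whereas each ratio combines a spot of each probe. At an exact permutation p of 0.2 an unequal difference between the probes is not established. The ratio also does not show which of them would differ. It is a ratio of probe signals, and how far Ins2 transcripts add to the Ins1 signal was not tested.

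**Figure D4:**
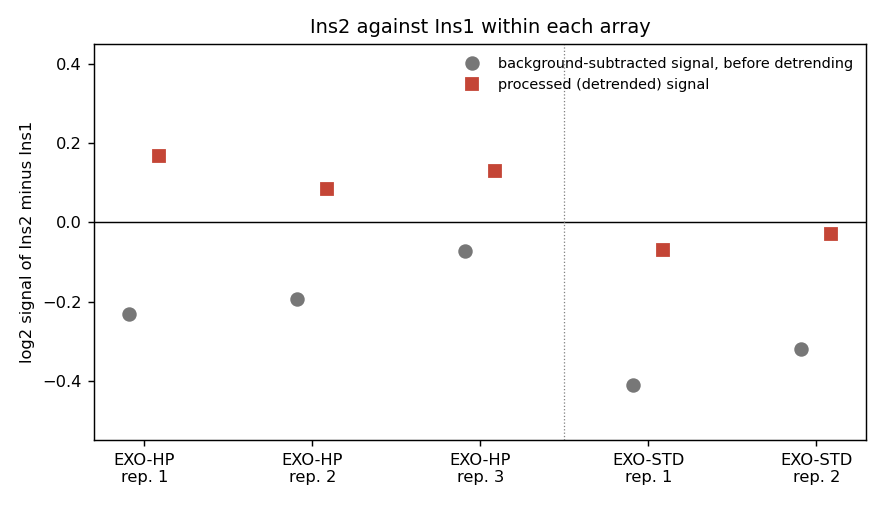
Log2 signal of Ins2 minus Ins1 on each array, from the background-subtracted signal before the spatial correction (circles) and from the processed signal after it (squares), with a line at 0 where the probes are equal. The 3 EXO-HP arrays lie above the 2 EXO-STD arrays with either signal, at 0.08 to 0.17 against -0.07 and -0.03 after the correction.

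Iapp relative to the mean of the insulin probes showed no such separation. This log2 difference was -0.33, -0.43 and -0.32 in EXO-HP, against -0.31 and -0.43 in EXO-STD, so that the groups overlapped fully. The means were -0.36 ± 0.06 (SD, n = 3) in EXO-HP and -0.37 ± 0.08 (SD, n = 2) in EXO-STD, a difference of 0.01 (two-sided exact permutation p = 0.8). Leaving out 1 array at a time gave -0.05 to 0.07, with the sign turned without EXO-STD replicate 2, EXO-HP replicate 1 or EXO-HP replicate 3.

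Likeness of pattern over the 5 arrays was measured as the root-mean-square difference between normalised log2 signals, each centred on its own mean, among 21822 genes well above background on all arrays. The genes nearest to Ins2 were 2810039B14Rik (0.015), Lrrc66 (0.024) and the array's LOC100046266 (0.026). Nearest to Ins1 were Klhdc7a (0.018), Zfp57 (0.021) and a transcript that the array lists only by an Ensembl identifier (0.022). Nearest to Iapp were Etv4 (0.015), Arhgef4 (0.019) and Cox4i2 (0.023). The median gene lay at 0.24 to 0.27 from each member. Among themselves, Ins2 and Iapp lay at 0.065, Ins1 and Iapp at 0.078, and Ins1 and Ins2 at 0.092. Iapp was the 88th nearest gene to Ins2, whereas Ins1 was the 326th. With 5 arrays shared by all genes and 2 group levels among them, these distances are a description only.

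Genes that act on the hormones were described by 4 lists. Median scaling shifts every log2 difference as it shifts the median of all probes, and all 4 list medians were below 0 with it. Genes that process the prohormones did not pass the test. Of 11 tested members of this list, 6 were higher and 5 lower, with a median log2 difference of 0.02 against 0.07 over all tested probes. None had an unadjusted p under 0.05, against 5.59% of all probes. Pcsk1, which makes the first cut in proinsulin, had normalised log2 signals of 5.02, 4.86 and 5.10 in EXO-HP, against 4.81 and 3.86 in EXO-STD, a difference of 0.66 ± 0.32 (SE, limma adjusted p = 0.937). EXO-STD replicate 2 lay well below the other 4 arrays for Pcsk1. Pcsk2, the other convertase of proinsulin and proamylin, showed 0.26 ± 0.23 with overlapping groups and -0.08 with its second probe. Cpe, at place 6 of all probes by signal, showed 0.05 ± 0.19, with -0.12 at another of its probes.

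Among 12 tested transcription factors of the insulin genes, 8 were higher and 4 lower, with a median of 0.11, and none had an unadjusted p under 0.05. Mafa, which binds the insulin promoter in mature beta cells, had 2.33, 1.98 and 2.31 in EXO-HP, against 1.87 and 1.79 in EXO-STD, a log2 difference of 0.38 ± 0.21 (SE, limma adjusted p = 0.972). Its groups did not overlap. Neurod1, which binds the insulin gene E boxes, showed 0.31 ± 0.34, with -0.15 at another of its probes. Pdx1, the homeodomain activator of Ins1, Ins2 and Iapp, showed 0.06 ± 0.18. Glis3, a zinc finger activator of insulin transcription, had 0.46 ± 0.20 (limma adjusted p = 0.912), with -0.75 at its other probe, so its probes disagreed in direction. For Hnf4a every EXO-HP array was below both EXO-STD arrays, at -0.20 ± 0.20. The nearest pair was almost equal, with 2.098 on EXO-HP replicate 3 and 2.106 on EXO-STD replicate 1. Groups without overlap in either direction were found for 17.8% of all tested probes.

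Of 13 granule cargo and membrane proteins, 10 were higher and 3 lower, with a median of 0.07, equal to that of all probes, and none had an unadjusted p under 0.05. Stx1a, a syntaxin of granule fusion, showed 0.35 ± 0.21 and Sytl4, the granule docking protein granuphilin, showed 0.44 ± 0.28 (SE). EXO-STD replicate 1, at 1.63, lay below the other 4 arrays for Sytl4, which had 2.38 to 2.56.

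In the receptors and degrading enzymes of insulin and amylin, 6 of 11 were higher and 5 lower, with a median of 0.01 and again no unadjusted p under 0.05. The amylin receptor is formed by Calcr, the calcitonin receptor, with a Ramp protein. Ramp1 had -1.67, -1.02 and -1.20 in EXO-HP, against -1.95 and -1.80 in EXO-STD, a difference of 0.58 ± 0.26 (SE, limma adjusted p = 0.920), with -0.25 at another of its probes. Calcr had -4.10, -3.62 and -3.70 in EXO-HP, against -3.47 and -3.05 in EXO-STD, a difference of -0.55 ± 0.26 (limma adjusted p = 0.931). Neither passed the test.

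**Figure D5:**
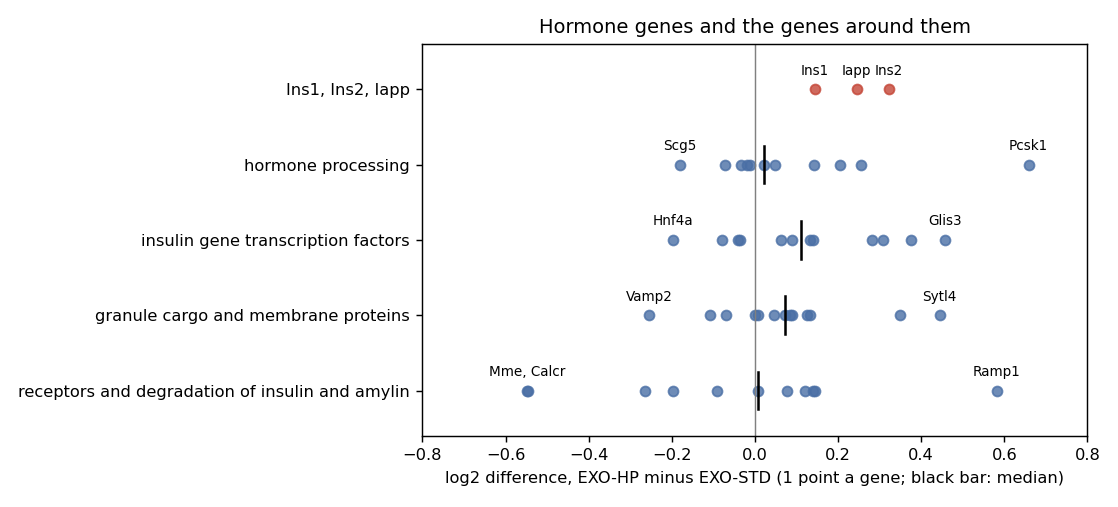
Log2 difference (EXO-HP minus EXO-STD) of Ins1, Ins2 and Iapp and of each tested gene of the 4 lists around them, 1 point a gene, with the median of each list as a black bar and the lowest and highest gene named. The hormones lie at 0.14 to 0.32, the list medians at 0.01 to 0.11 (below 0 with median scaling), and the single genes spread to both sides of 0.

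The signals of cell type markers were set beside the label of the cells. All 16 beta cell markers, which include Ins1, Ins2 and Iapp, were well above background on all 5 arrays. So were 26978 of the 39319 probes with a value on every array, so this flag alone does not tell cell types apart. The beta cell marker Ucn3, for example, had a median processed signal of 190 units. Of 7 alpha cell markers 4 were well above background on all 5 arrays, including Gcg, the proglucagon gene, with a median processed signal of 87147 units. The delta cell markers summed to 245 to 503 units in EXO-HP and 352 to 356 in EXO-STD, and the acinar markers to 645 to 949 in EXO-HP and 626 to 792 in EXO-STD. For PP and epsilon cell markers the sums were 688 to 1145 in EXO-HP and 670 to 949 in EXO-STD. Duct cell markers summed to 6615 to 10381 in EXO-HP and 8853 to 9664 in EXO-STD. Of 12 skeletal muscle markers 6 were well above background on all 5 arrays, and their summed signal was 2010 to 4010 units in EXO-HP, against 1632 to 1780 in EXO-STD. The muscle marker sum, which is not scaled between arrays, was thus higher in EXO-HP without overlap. Among single probes after scaling, 15.1% of those tested (4820 of 31977) were higher in EXO-HP without overlap. EXO-HP replicates 2 and 3 were on slide 2, and the other arrays on slide 1. Atp2a1 had the highest median signal of the muscle markers, 1075 units. The part of these markers in the hormone differences was not tested.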

How the data were processed

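Cy3-labelled cRNA of 5 MIN6 samples was hybridised to 1 array each, from 0.1 µg of RNA per the labels' protocols. The authors deposited scanner tables of spot intensity. The file headers name Feature Extraction 10.7.3.1, and the submitters' processing notes name version 9.1 and limma without a role. Per the file headers, processed intensity is background-subtracted and spatially detrended; at the hormone spots it equalled the background-subtracted signal divided by the deposited surface, a ratio per spot, and arrays were not scaled to each other. The authors also deposited a table of log2 values, whose columns shared 1 distribution (median 7.93 on each array) and whose ranks equalled those of mean signal minus local background; its scale and direction matched the scanner signals, and its making is otherwise not given in the sources used. All its columns were matched to samples.

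Outlier spots were dropped, processed signals were put on the log2 scale, spots of a probe were averaged and the 75th percentile of each array was subtracted. Of 39319 probes with a value on every array, 31977 passed the filter (in 1 group, 2 or more arrays well above background) and were tested by lmFit and eBayes of limma 3.58.1, under R 4.3.3 (no covariates, Benjamini-Hochberg over all of them, threshold 0.05, 3 residual and 2.59 prior degrees of freedom). The fit was first tested on simulated data. Within-array differences were compared with exact permutation tests, and ranks and sequences were handled in Python 3.11.15. Symbols were updated through RefSeq accessions for 66.1% of probes. For genes with several probes the brightest stands for the gene.

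Named genes are the 3 hormone genes, the 15 brightest probes, the 3 genes nearest to each hormone gene in pattern, and from each list the 2 smallest p beside Pcsk1, Pcsk2, Cpe, Pdx1, Mafa and Neurod1; Hnf4a and the markers named were picked with their values in view. The genes, lists and tests were chosen with earlier results of these data known. Alternatives varied the scaling, background correction, spatial correction, probe filter, slide block, replicate block, weights and each array left out. The labels name no pairing of replicate numbers between the groups. Same-numbered arrays correlated at 0.03 (replicate 1) and -0.05 (replicate 2). The EXO-STD arrays gave the same correlations with opposite signs, so these values cannot show whether arrays were paired. The number of arrays limits the precision.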

Additional observations from a re-analysis of the deposited data

How the results depend on the processing

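Ins2 and Iapp kept their direction and stayed short of the threshold in all 21 alternatives, with log2 differences of 0.15 to 0.41 for Ins2 (adjusted p = 0.709 to 1.00) and 0.07 to 0.35 for Iapp (0.808 to 1.00). Ins1 kept both in 18 of 21 and ranged from -0.034 to 0.21; it was -0.032 with median scaling, -0.033 with normexp and quantile normalisation and -0.034 in the deposited table. Leaving out 1 array at a time gave 0.12 to 0.17 for Ins1, 0.31 to 0.34 for Ins2 and 0.17 to 0.32 for Iapp. The spatial correction was left out as an alternative chosen after seeing the data, which moved the median of all probes to 0.21; the differences were then 0.21 for Ins1, 0.41 for Ins2 and 0.35 for Iapp. Mean signal minus local background, also without that correction, gave 0.074 for Ins1, 0.27 for Ins2 and 0.22 for Iapp, with a median of all probes of 0.05; the cause of the larger shift was not tested. Ins2 minus Ins1 kept its sign in 12 of 12 alternatives, which reuse the same spots. Iapp minus the mean of Ins1 and Ins2 was 0.01 as reported and -0.048 to 0.072 with 1 array left out. It was -0.0082 with the replicate block, 0.063 in the deposited table and 0.12 with normexp and quantile normalisation. The replicate block gave 0.14 for Ins1, 0.31 for Ins2 and 0.22 for Iapp and changed no other call.

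Probes past the threshold numbered 0 in the reported fit, 94 with the arrays of slide 1 only (1 residual degree of freedom) and 0 to 3 with 1 array left out, the 3 without EXO-STD replicate 1; the cause was not tested. List medians moved as follows. With median scaling they were -0.15 for hormone processing, -0.066 for transcription factors, -0.10 for granule proteins and -0.17 for receptors. With slide as a fixed block and with slide 1 only, hormone processing had 0.084 and granule proteins 0.21. With the background-subtracted signal before the spatial correction, hormone processing had 0.20, transcription factors 0.23 and granule proteins 0.26. Receptors ranged from -0.12 to -0.010 with 1 array left out, lowest without EXO-STD replicate 1. As each hormone gene had 1 probe, the alternatives of averaging probes and of taking each probe could not be run.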
